A study of Homo sapiens with 2 samples.

Results

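The binding of ETV4 was examined at 10 genes for chemokines and inflammatory cytokines: CXCL1, CXCL2, CXCL3, CXCL5, CXCL8, CCL2, CCL20, IL6, IL1B and LIF. The rule was a list of gene names, chosen with earlier results of these data known, out of 20033 protein-coding RefSeq genes. For each gene all peaks within 20 kb of its span were collected, which gave 25 of the 54389 peaks in the list, and no peak lay within 20 kb of more than 1 of the 10 genes. The peaks came from 1 immunoprecipitate with an anti-Flag antibody. The labels name the cells as A549 only, and the knockdown and the tagged protein are given in the study's methods. A549 is an established human lung adenocarcinoma line, here with ETV4 knocked down by a lentiviral shRNA and Flag-tagged ETV4 returned on a plasmid, so the bound protein was exogenous. The other library was an input from the same line, whose reads were not analysed here. It entered only through the deposited values of the peaks, from which the control levels below were solved. There was no replicate and no immunoprecipitate from cells without the tag, so no SD and no test can be given, and a fold in this report is the deposited enrichment of a peak's summit over the control level.

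Chemokines are small secreted proteins that guide migrating leukocytes. CXCL1, CXCL2, CXCL3, CXCL5 and CXCL8 carry the ELR motif and attract neutrophils through the receptor CXCR2, and their genes sit in a cluster on chromosome 4. CCL2 draws monocytes and CCL20 draws lymphocytes and dendritic cells. IL1B starts inflammatory signalling through its receptor and the transcription factor NF-κB, whereas IL6 and LIF signal through the shared receptor chain encoded by IL6ST. Many of these promoters are switched on by NF-κB in epithelial and tumour cells. ETV4 belongs to the PEA3 group of ETS factors, which recognise DNA with the core GGAA.

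Flag-ETV4 peaks were found within 20 kb of 8 of the 10 genes, against 86.1% of all protein-coding genes under the same rule. CXCL5 and IL6 had none. All 8 also had a peak with a fold over 10, against 72.3% of protein-coding genes. These counts lay near the background. The 10 genes are short, with spans of 1916 to 7029 bp against a median of 24130 bp over protein-coding genes, and among protein-coding genes with a span of up to 10 kb 74.2% had a peak within 20 kb. Closer in, CXCL1, CXCL2, CXCL3, CCL2, CCL20 and LIF carried a peak no more than 1 kb from either end, which is 6 of 10, against 62.1% of protein-coding genes. The 25 peaks had folds of 3.07 to 69.2 with a median of 12.1, against a median of 9.63 over all peaks, and 15 of them (60%) exceeded a fold of 10, as did 48.5% of all peaks.

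**Figure D1:**
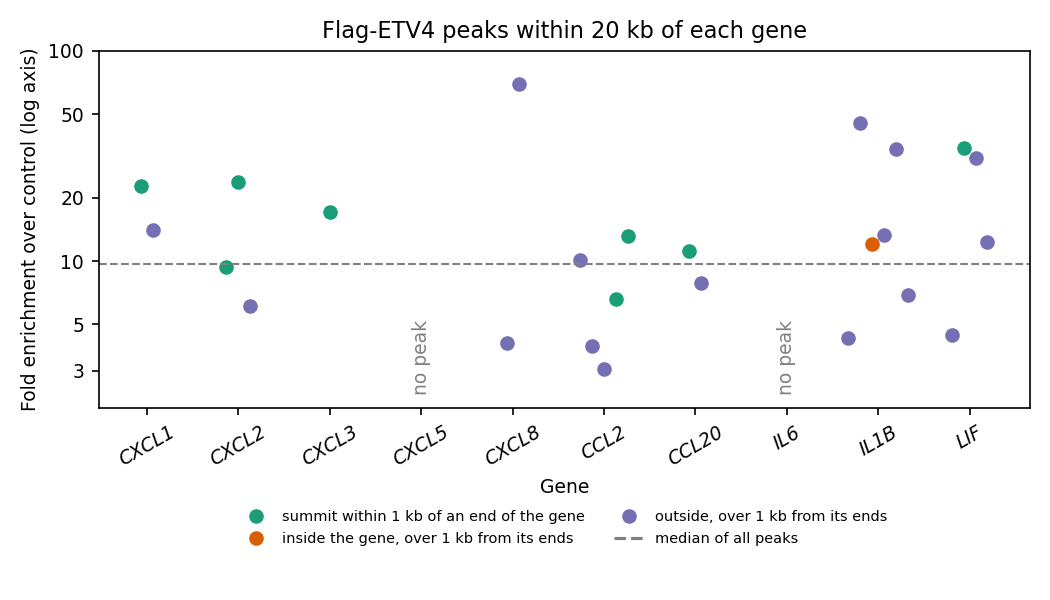
Fold enrichment over the control (log axis) of each of the 25 peaks within 20 kb of the 10 genes, in order of coordinate within a gene, with colours for the place of the summit relative to the gene and a dashed line at 9.63, the median of all 54389 peaks. CXCL5 and IL6 have no peak, and the highest points, at CXCL8 (69.2) and IL1B (45.2), lie more than 1 kb outside their gene.

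The sequence before the start of 6 of the genes is shown because CXCL1, CXCL2 and CXCL3, with a peak on their start, can be set beside 3 without one. No sequence was held for CCL2 and LIF, each of which had a peak over an end of the gene. Each line gives the 250 bases before the transcription start on the strand of the gene, from RefSeq on GRCh38.p14, with every GGAA on either strand (written TTCC on the other) in capitals. CXCL1 is read from chr4:73869143-73869392 on the plus strand, CXCL2 from chr4:74099196-74099445, CXCL3 from chr4:74038690-74038939 and CXCL5 from chr4:73998678-73998927 on the minus strand, CXCL8 from chr4:73740319-73740568 and IL6 from chr7:22726950-22727199 on the plus strand.
CXCL1: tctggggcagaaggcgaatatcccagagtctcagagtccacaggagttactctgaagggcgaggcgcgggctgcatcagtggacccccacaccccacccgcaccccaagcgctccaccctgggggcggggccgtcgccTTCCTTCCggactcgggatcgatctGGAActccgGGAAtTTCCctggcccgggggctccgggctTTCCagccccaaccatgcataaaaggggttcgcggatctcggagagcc
CXCL2: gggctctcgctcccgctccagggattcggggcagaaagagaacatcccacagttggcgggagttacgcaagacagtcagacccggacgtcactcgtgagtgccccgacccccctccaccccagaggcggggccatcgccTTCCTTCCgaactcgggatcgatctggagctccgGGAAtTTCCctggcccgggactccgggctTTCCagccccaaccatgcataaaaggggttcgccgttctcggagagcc
CXCL3: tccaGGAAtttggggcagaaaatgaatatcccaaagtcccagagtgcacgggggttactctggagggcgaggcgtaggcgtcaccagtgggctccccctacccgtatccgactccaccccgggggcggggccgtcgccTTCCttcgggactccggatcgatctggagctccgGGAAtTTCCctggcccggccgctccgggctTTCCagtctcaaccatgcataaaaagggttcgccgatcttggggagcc
CXCL5: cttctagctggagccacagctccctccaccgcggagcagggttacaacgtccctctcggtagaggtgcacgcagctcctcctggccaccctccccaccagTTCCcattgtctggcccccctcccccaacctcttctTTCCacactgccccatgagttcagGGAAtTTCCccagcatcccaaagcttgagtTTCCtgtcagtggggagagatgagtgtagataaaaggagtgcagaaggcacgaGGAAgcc
CXCL8: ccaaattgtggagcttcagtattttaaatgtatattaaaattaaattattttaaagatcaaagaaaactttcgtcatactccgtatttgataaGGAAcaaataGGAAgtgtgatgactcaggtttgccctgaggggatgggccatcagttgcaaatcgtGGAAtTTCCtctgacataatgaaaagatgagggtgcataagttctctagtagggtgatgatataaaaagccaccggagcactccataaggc
IL6: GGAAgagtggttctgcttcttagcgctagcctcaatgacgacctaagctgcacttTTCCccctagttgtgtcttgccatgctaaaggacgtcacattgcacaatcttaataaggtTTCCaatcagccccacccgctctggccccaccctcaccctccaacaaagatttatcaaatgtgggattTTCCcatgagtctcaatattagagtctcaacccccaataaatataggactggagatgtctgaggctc

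A promoter window of 300 bases, from 250 before to 50 after the start, was held for 8 of the 10 genes, all but CCL2 and LIF. A peak overlapped it at 3 of these 8, CXCL1, CXCL2 and CXCL3, against 59.7% of 15842 protein-coding genes for which a window was held. The window was free of peaks at CXCL5, CXCL8, CCL20, IL6 and IL1B. At CXCL1 on chromosome 4, which spans 73869393 to 73871308, the peak from 73868991 to 73869692 had its summit 50 bp before the start and a fold of 22.8. At CXCL2, from 74097040 to 74099195, the peak from 74098883 to 74099615 had its summit 146 bp before the start and a fold of 23.8. At CXCL3, from 74036589 to 74038689, the peak from 74038226 to 74039469 had its summit 6 bp before the start and a fold of 17.0. The same peak also covered the start of the lncRNA gene LOC105377275, at 74038945 on the plus strand. Among the 14578 peaks with a summit within 1 kb of any gene end, whose median fold was 13.6, these folds stood at percentiles 69.7, 71.6 and 58.3. The 3 promoters of the GRO chemokines thus all carried a fold above the median of peaks near gene ends.

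The pileup, the number of extended reads or fragments at a summit, here called fragments, was solved from the deposited fold and p-value and gives the counting error. It was 51 fragments at the start of CXCL1 (exact Poisson 95% confidence interval 38.0 to 67.1), 79 at CXCL2 (62.5 to 98.5) and 39 at CXCL3 (27.7 to 53.3). The interval of CXCL1 overlapped both others, whereas those of CXCL2 and CXCL3 did not overlap. The control level at CXCL2 was 2.36, against 1.28 at CXCL1 and 1.35 at CXCL3, so the 3 genes were closer in fold than in pileup. The intervals cover counting error only. The promoters of the 3 genes are related in sequence: aligned over their windows, CXCL1 and CXCL3 were identical at 82.5% of columns, CXCL2 and CXCL3 at 73.7% and CXCL1 and CXCL2 at 69.7%, with longest shared runs of 25, 37 and 42 bases. How reads that fit more than 1 of these copies were treated is not given in the sources used here, and its part in the values was not tested.

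The GGAA core occurred in all 8 windows, as in 95.1% of the 22198 windows of protein-coding genes, so its presence by itself separates nothing. The longer form CCGGAA was found in 1 of the 8, CXCL1, with its first base 108 bp before the start on the opposite strand. It was present in 21.2% of all windows, of which 79.98% lay under a peak, against 54.1% of windows in general. The form CCGGAAGT was found in none of the 8 and in 5.33% of all windows. The form GGAAGT occurred in CXCL8 and CCL20, neither of which had a peak on its window, and in 23.9% of all windows. A match to these letters is a description and not a binding site.

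The element GGAATTTCC, one form of the NF-κB site, which contains a GGAA on either strand, was found in the windows of all 5 CXC genes and in none of the other 3. In all it occurred in 0.405% of windows, 90 of 22198. It began 78 bp before the start of CXCL1 and CXCL3, 77 bp before that of CXCL2, 90 bp before that of CXCL5 and 91 bp before that of CXCL8. The element alone did not set the genes with a peak apart, since CXCL5 and CXCL8 carry it too, and 57.8% of the 90 windows lay under a peak, close to the 54.1% of all windows. A looser form, GGGNN followed directly by TTTCC, was found in 6 of the 8 windows (CXCL1, CXCL2, CXCL3, CXCL5, CCL20 and IL6) and in 1.93% of all windows. In the 4 CXC genes among these it overlapped GGAATTTCC, starting 1 base before it. The AP-1 form TGANTCA was found in CXCL8 alone of the 8, with its first base 137 bp before the start, and in 6.15% of all windows.

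The summits lay at different distances from the GGAA cores of the related promoters. At CXCL1 the summit was 3.5 bp from the centre of the nearest GGAA, at CXCL2 36.5 bp and at CXCL3 40.5 bp. Over the 4093 promoter windows that held a summit, the median distance to the nearest GGAA was 17.5 bp, with quartiles of 6.5 and 38.5 bp. CXCL1 was thus below the lower quartile, CXCL2 in the upper part of the range and CXCL3 above the upper quartile. The position of a summit is uncertain at pileups of this size, and its error was not given in the list.

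**Figure D2:**
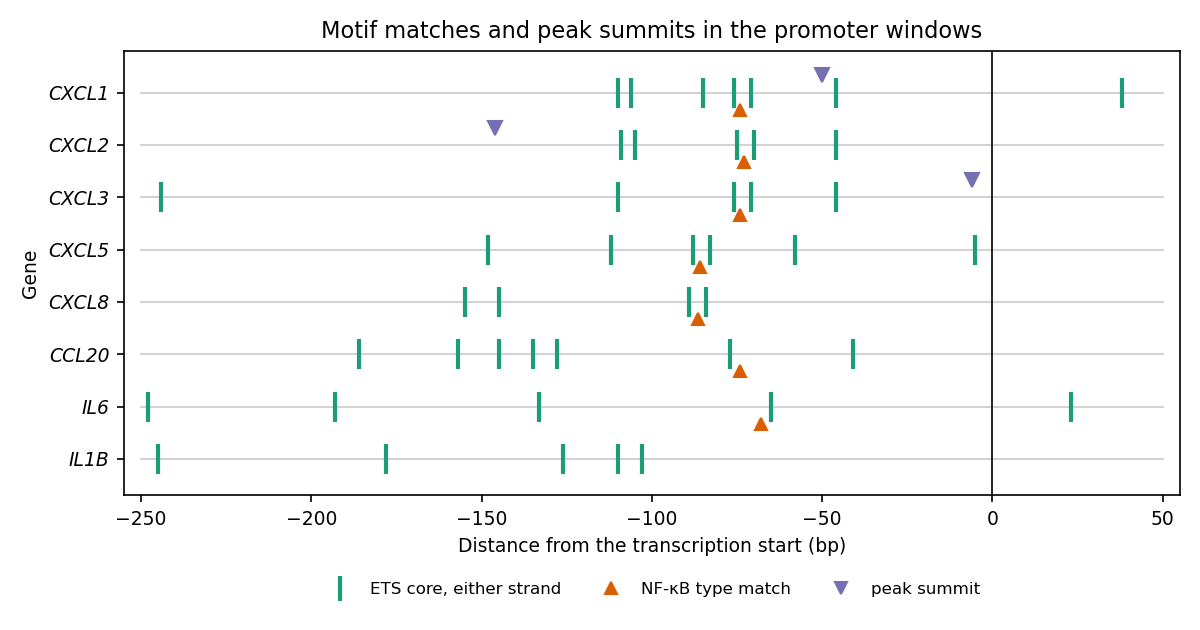
Promoter windows of the 8 genes from 250 bp before to 50 bp after the start (x axis, bp), with GGAA cores on either strand as green bars, NF-κB type matches as orange triangles and peak summits as purple triangles. Only CXCL1, CXCL2 and CXCL3 have a summit, at 50, 146 and 6 bp before the start, although CXCL5 and CXCL8 have the NF-κB type match at a similar place.

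CXCL8, which encodes interleukin 8, had no peak on its promoter but the highest fold of all 25 peaks at a distance. This peak, at chr4:73727170-73727961, was 792 bp wide and lay 12.6 kb upstream of the gene, with its summit 13.0 kb before the start. By fold, 69.2, it ranked at percentile 97.2 of the list. It rested on 157 fragments (133 to 184) at the lowest control level, 1.28. This level was shared within 0.005 by 29.0% of all peaks, so it is not particular to this site. A smaller peak just beyond the strong one, from 73726164 to 73726606, had a fold of 4.09 and 10 fragments (4.80 to 18.4). The end of the lncRNA gene INKILN was the nearest gene end to the summit of the strong peak, 6516 bp away. Both peaks thus lay between INKILN and CXCL8.

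CXCL5, which encodes a further neutrophil attractant, lay in a stretch of 118 kb without a peak. The nearest one was the CXCL3 promoter peak, 39.5 kb away, and on the other side the nearest, with a fold of 4.63, was 75.6 kb away. The genes PF4 and PPBP, which encode platelet chemokines, lie in the same stretch and had no peak within 20 kb. The median gap between neighbouring peaks of the list was 18.7 kb, and 10.9% of gaps were at least as long as the one around CXCL5. Each gap was counted once whatever its length. Long gaps cover more of the genome, so a larger share of positions lies in such stretches, and that share was not computed. At CXCL2, a weaker peak lay inside the gene, from 74097653 to 74098241, with a fold of 9.39 and 21 fragments. Another, from 74109313 to 74109823, had its summit 10.3 kb upstream with a fold of 6.08 and was nearer to the end of MTHFD2L. CXCL1 had a second peak 3.57 kb after its start and beyond its 3′ end, from 73872765 to 73873195, with a fold of 14.01 and 31 fragments (21.1 to 44.0).

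From the start of CXCL8 to the end of CXCL2 the cluster covers 359 kb and 9 protein-coding genes, and 8 peaks overlapped it. That is 2.23 peaks per 100 kb, against 1.80 over the chromosomes in the list. A peak lay within 1 kb of an end at 3 of these 9, the GRO genes CXCL1, CXCL2 and CXCL3, against 62.1% of all protein-coding genes. CXCL6, whose promoter window was 83.1% identical to that of CXCL5, the highest value among the 6 CXC genes aligned, had no peak within 20 kb, and the nearest was 30.2 kb away. PF4V1 had 2 peaks within 20 kb, both also counted for CXCL1, the nearer being its promoter peak 14.5 kb away. Of the 8 peaks, 3 were more than 20 kb from all 5 listed genes, with folds of 5.26, 24.1 and 4.63. The strongest of these 3, at chr4:73788031-73788629, lay 44.3 kb beyond CXCL8 on the side of CXCL6, with 54 fragments (40.6 to 70.5), and its fold was close to those at the starts of CXCL1 and CXCL2.

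**Figure D3:**
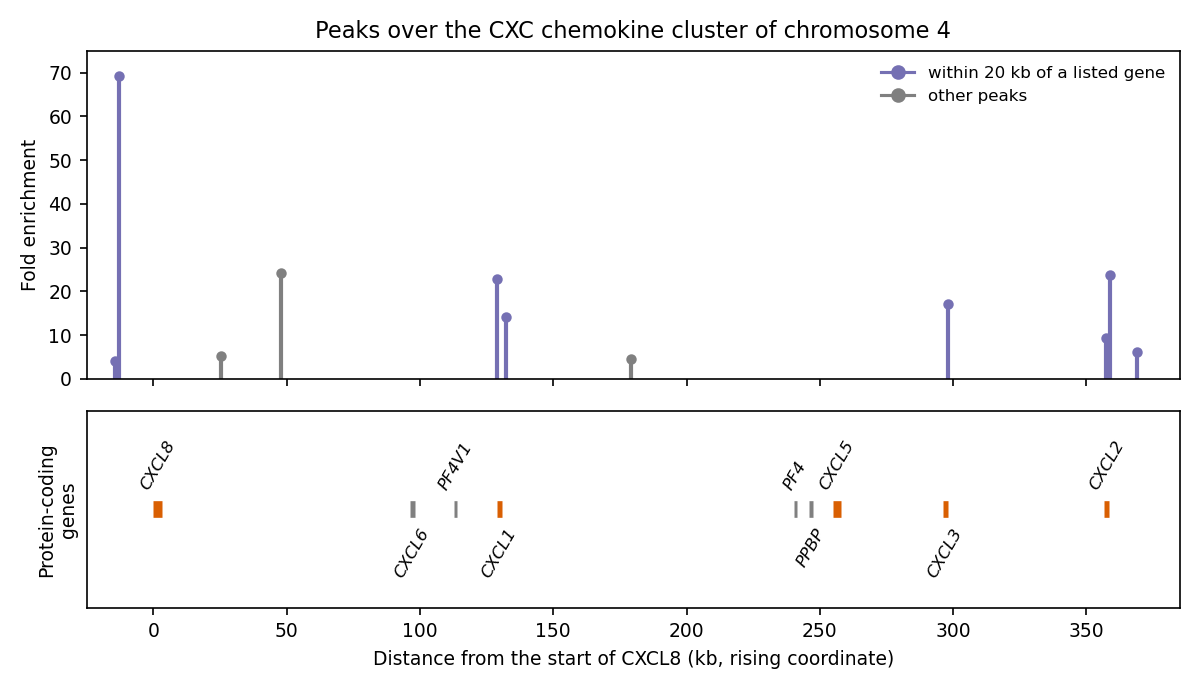
Fold enrichment of the 11 peaks over the CXC cluster and 20 kb on either side (upper panel) above its 9 protein-coding genes (lower panel), against distance from the start of CXCL8 in kb, with peaks within 20 kb of a listed gene in purple. The highest peak (69.2) stands before CXCL8, the starts of CXCL1, CXCL3 and CXCL2 carry folds of 17.0 to 23.8, and no peak falls over PF4, PPBP and CXCL5.

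CCL2 on chromosome 17, from 34255285 to 34257203, had 5 peaks, all of them on its low-coordinate side, with folds of 3.07 to 13.1. As many peaks or more were found at 23.9% of protein-coding genes. The peak at the end of the gene, from 34254827 to 34255303, had its summit 227 bp outside and a fold of 13.1 with 29 fragments (19.4 to 41.6). Next to it, the peak from 34254147 to 34254483 had a fold of 6.57 with 14 fragments (7.65 to 23.5). The 3 others, with summits 2.69, 8.62 and 9.37 kb from the gene, had folds of 3.07, 3.94 and 10.1. The one at 2.69 kb, with 6 fragments (2.202 to 13.1) and a −log10 q of 1.48, was among the weakest of the list, at percentile 0.872 by fold. All 5 had a control level of 1.28, the lowest level of the list, which many peaks share.

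CCL20 on chromosome 2, from 227813842 to 227817556, had no peak on its start and 2 beyond its 3′ end. The nearer one, from 227817880 to 227818635, had its summit 789 bp beyond the gene, a fold of 11.2 and 48 fragments (35.4 to 63.6) over a control level of 3.38, which is at percentile 94.2 of control levels. The other, from 227829899 to 227830312, was 12.3 kb beyond the gene with a fold of 7.86 and 17 fragments. The former ranked at percentile 56.1 by fold and 69.9 by pileup. The strongest peak in the wider surroundings fell outside the limit of 20 kb. It lay 35.7 kb upstream at chr2:227777232-227778188 with a fold of 95.5 and 217 fragments.

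IL1B on chromosome 2, from 112829751 to 112836779 on the minus strand, had the most peaks of the 10 genes, 6, a number reached by 16.1% of protein-coding genes. None touched its promoter window. Upstream, 3 peaks stood side by side: their summits lay 1.88, 2.94 and 4.89 kb before the start, with folds of 13.3, 34.0 and 6.92 and pileups of 34, 88 and 18 fragments. The strongest of these 3, from 112839279 to 112840102, had its summit 77 bp from an end of the lncRNA gene AMANZI. Inside IL1B, the peak from 112831518 to 112832042 had a fold of 12.1 with 52 fragments (38.8 to 68.2) over a control level of 3.38. The strongest peak was downstream, at chr2:112811149-112812413, its summit 17.7 kb beyond the gene, with a fold of 45.2 and 212 fragments (184 to 243). It was 1265 bp wide and nearest to an end of LOC124907871, 5000 bp away. The peak beyond it, 19.9 kb from the gene, was the farthest that the 20 kb limit admitted and had a fold of 4.32.

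LIF on chromosome 22, from 30240453 to 30246759, had 4 peaks, the widest 2 of which stood at and near its high-coordinate end. The peak from 30245358 to 30246930 covered that end, was 1573 bp wide, the widest of the 25, and had a fold of 34.6 with 78 fragments (61.7 to 97.3). Its summit lay 272 bp inside LIF and also within the antisense gene LIF-AS2. The peak from 30250624 to 30251998 had its summit 4.27 kb beyond that end, a width of 1375 bp, a fold of 30.9 and 79 fragments (62.5 to 98.5). These 2 peaks were alike in fold, and their pileup intervals overlapped almost wholly. Farther out, a peak 9.31 kb beyond the same end on the side of OSM had a fold of 12.3, and one 4006 bp from the other end had a fold of 4.46. Just outside the limit, 20.1 kb from LIF, a further peak from 30219623 to 30220319 had a fold of 23.1.

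**Figure D4:**
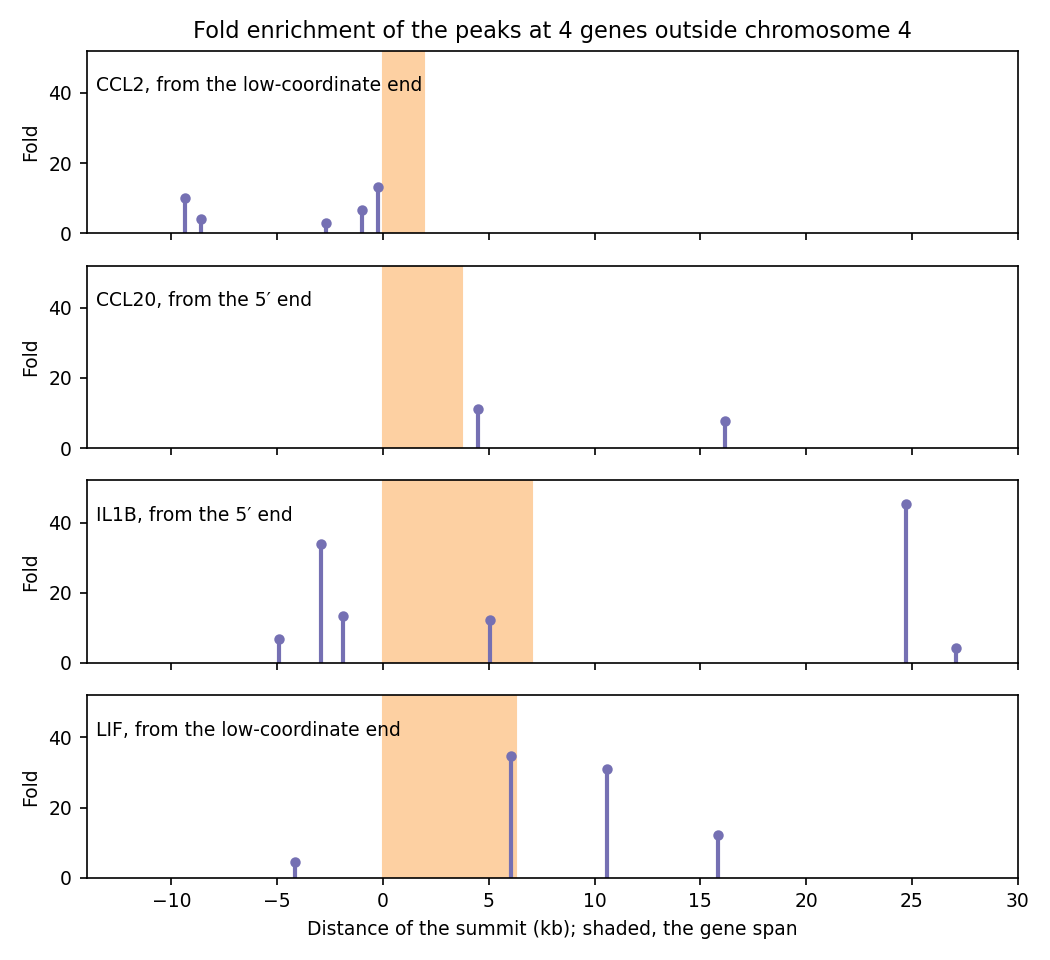
Fold enrichment of the peaks at CCL2, CCL20, IL1B and LIF against the distance of their summit in kb, measured from the 5′ end for CCL20 and IL1B (positive into the gene) and from the low-coordinate end for CCL2 and LIF, with the gene span shaded. LIF has a peak of 34.6 at an end of the gene, whereas the peaks of 45.2 and 34.0 at IL1B stand outside it.

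IL6 on chromosome 7, from 22727200 to 22731998, lay in a stretch of 160 kb without a peak, longer than the one around CXCL5. The nearest peaks were 58.9 kb away on the low-coordinate side, with a fold of 3.83 and 8 fragments, and 96.0 kb away on the other side, with a fold of 20.1 and 45 fragments. Gaps of this length or more made up 7.15% of all gaps between neighbouring peaks, again by number of gaps and not by the share of the genome they cover. Binding at IL6 was therefore not detectable at this depth, which does not show that it was absent. The 4 GGAA cores printed above for IL6, and the looser NF-κB form 73 bp before its start, lay in this stretch.

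Ordered by the fold of their strongest peak, the genes ran CXCL8, IL1B, LIF, CXCL2, CXCL1, CXCL3, CCL2 and CCL20, from 69.2 to 11.2. Ordered by pileup, IL1B came before CXCL8, with control levels of 3.71 and 1.28, and CCL20, with a control level of 3.38, moved from the last place to rank 6, above CXCL3 and CCL2. The intervals of IL1B and CXCL8 (184.4 to 243 and 133 to 183.6 fragments) did not overlap, and both lay above the 6 other genes. From LIF down, the interval of each gene overlapped that of the next, in both orders. Set among all protein-coding genes by the strongest peak within 20 kb, CXCL8 stood at percentile 93.2, IL1B at 81.7 and LIF at 70.3. The others lay lower, at 54.7 for CXCL2, 52.5 for CXCL1, 41.8 for CXCL3, 34.3 for CCL2 and 30.6 for CCL20. These percentiles are not matched for span. The listed genes are short, longer genes have larger windows under this rule, and no percentile among short genes was computed. The control level at the 25 summits ranged from 1.28 to 3.71 with a median of 1.59, against 1.67 over all peaks, and 9 of the 25 were within 0.005 of the lowest level, as were 29.0% of all peaks.

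**Figure D5:**
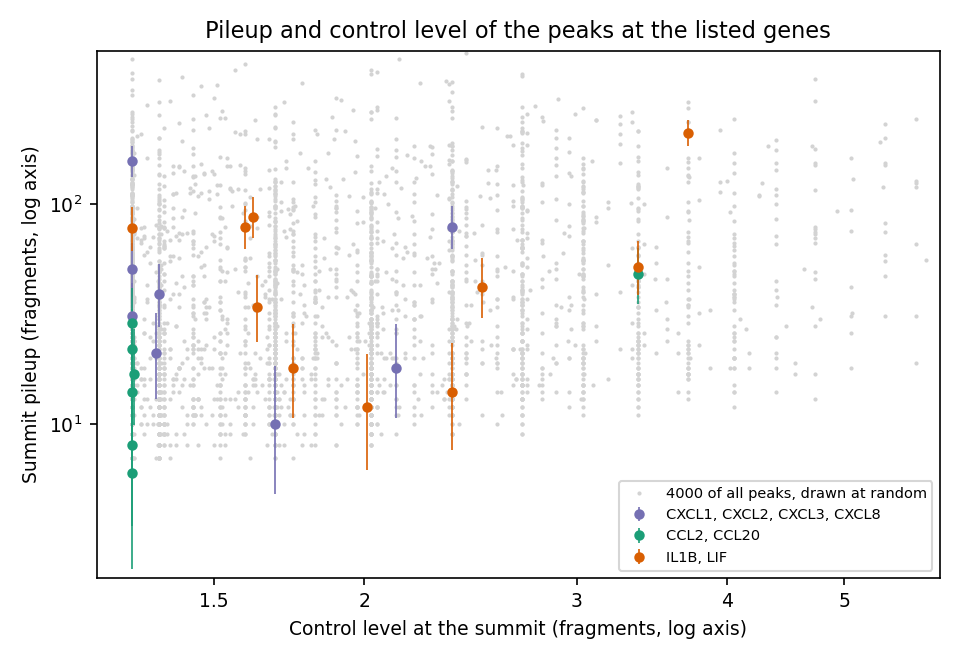
Summit pileup in fragments against the control level at the summit (both log axes) for the 25 peaks, coloured by gene group, with exact Poisson 95% confidence intervals, over 4000 of all peaks in grey, of which those beyond the axes are not drawn. IL1B has the highest pileup (212) at the highest control level (3.71), whereas the strong CXCL8 peak (157) stands at the lowest (1.28).

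The strongest peaks of the 10 genes differed in place. At CXCL1, CXCL2, CXCL3, CCL2 and LIF the strongest peak covered an end of the gene, with folds of 13.1 to 34.6. At CXCL8 and IL1B its summit lay 13.0 and 17.7 kb outside, with folds of 69.2 and 45.2, and at CCL20 it lay 789 bp outside. Of the 25 summits, 9 were within 1 kb of an end of any gene, against 26.8% of all peaks, and 8 within 1 kb of an end of the listed gene itself. Of the 25 peaks, 4 were wider than 1 kb (17.1% of all peaks were).

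Genes that act with these ligands were counted under the same rule, to be read against the 86.1% with a peak, the 72.3% with a fold over 10 and the 62.1% with a peak no more than 1 kb from an end among protein-coding genes. Among the receptors, 10 of 11 had a peak and 8 had one with a fold over 10. The highest were at IL1RAP, the co-receptor for IL1B, with a fold of 101, near ACKR1, a decoy receptor for chemokines, with 32.8, and at IL6R with 28.5. The ACKR1 peak lay 5130 bp outside the gene. Of the receptors of the CXC ligands, CXCR1, which binds CXCL8, had a highest fold of 23.8 and CXCR2, which binds them all, one of 4.86. These peaks lay 4909 and 12792 bp outside the genes. CCR2, the receptor of CCL2, had no peak. All 14 genes of the NF-κB pathway had a peak with a fold over 10, and at 13 of them a peak lay within 1 kb of either end, against 62.1% of protein-coding genes. Their highest folds were 76.8 at NFKBIE, an inhibitor of NF-κB, 68.8 for IKBKB, a kinase that releases it, and 51.5 at TNIP1. The IKBKB peak lay 5560 bp outside the gene, whereas those of NFKBIE and TNIP1 overlapped their genes. Long genes have larger windows under this rule, and no test of these lists was made.

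Of 25 other chemokine genes, 13 (52%) had a peak, 8 had one with a fold over 10 and 2 had one no more than 1 kb from either end, against 86.1%, 72.3% and 62.1% of protein-coding genes. Among protein-coding genes with a span of up to 10 kb, 74.2% had a peak, and the other shares were not computed for short genes. Neighbouring genes of this list can also share a peak, as CCL3 and CCL4 did, so the 25 are not independent counts. The highest were counted for CCL22, with a fold of 109, CCL26 with 54.96 and CCL17 with 39.4. Those of CCL22 and CCL17 lay 7686 and 6339 bp outside the genes, whereas that of CCL26 overlapped its gene. CXCL10 and CXCL11, which encode interferon-induced attractants of T cells, had none. The strongest peak counted for CCL7 was the one at the end of CCL2, and that counted for PF4V1 was the CXCL1 promoter peak. Of 18 other cytokine genes, 16 had a peak and 14 had one with a fold over 10, with the highest for IL11 (65.3), IL36RN (56.4) and CTF1 (49.0). Those of IL11 and CTF1 lay 14352 and 1273 bp outside the genes, whereas that of IL36RN overlapped its gene. OSM, a neighbour of LIF and a cytokine of the same family, was counted through the LIF peak of 34.6. All 10 genes of a list of signalling, transcription and mRNA decay factors and effectors downstream of these cytokines had a peak with a fold over 10. All 10 also had one no more than 1 kb from an end, against 62.1% of protein-coding genes. The highest folds were counted for SOCS3 (75.4), which restrains IL6 signalling, JAK1 (64.7), its kinase, and ZFP36 (47.5), which destabilises cytokine mRNA. This SOCS3 peak lay 17315 bp outside the gene, whereas those of JAK1 and ZFP36 overlapped their genes.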

How the data were processed

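One library, immunoprecipitated by the Flag tag of the returned ETV4, gave the peak list, and the submitters' processing notes name Bowtie2 2.4.1, SAMtools, MACS2 2.2.7.1 and deepTools 3.5.0 with the builds hg38 and GRCh38. Parameters and the handling of duplicate reads are not given in the sources used here. The Flag antibody is from Sigma in the labels and from CST in the paper. The deposited list gives for each peak a fold enrichment (a ratio over the control), a −log10 p and a −log10 q at the summit, and the summit position. A deposited display score was not used. The peaks of the single library were not pooled.

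Positions are 1-based on hg38. Genes were the 59675 RefSeq genes of GRCh38.p14. Strand came from the promoter table, so for CCL2 and LIF distances were taken from the ends of the gene. Summit pileup and control level were obtained by inverting the deposited fold and −log10 p, taking fold as pileup plus 1 over control plus 1 and p as a Poisson tail. On simulated peaks 100% of pileups were recovered. These were made with the same formulas, so this checks only the inversion and not whether the deposited values follow them. Of the 54389 real pileups, 100% were whole within 0.01. The list's median pileup was 26 fragments, with a range of 6 to 7664. Intervals are exact Poisson 95% confidence intervals. Promoter windows were aligned globally (match 2, mismatch -1, gap opening -5, extension -1). The motifs were searched on both strands of the 22198 windows.

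The members and the 5 pathway lists were chosen with earlier results of these data known. The genes named were the 10 members, the genes of the chromosome 4 cluster, the gene with the end nearest to a strongest peak, and the 3 genes of highest fold in each list; CXCR1, CXCR2, CCR2, CXCL10, CXCL11, OSM and CCL7 were named after their values were seen, as were LIF-AS2 and MTHFD2L, and the motifs CCGGAA and GGAAGT. Alternatives covered the window, the summit, fold, q and the background genes. Software was scipy 1.17.1, biopython 1.88, pandas 2.3.3, matplotlib 3.10.9 and numpy 2.4.6 under Python 3.11.15.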

Additional observations from a re-analysis of the deposited data

How the results depend on the processing

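The list comes from 1 library, so nothing here has a replicate check, and pileups of 6 to 212 fragments limit the precision of each peak. No paired analysis was possible because there is 1 library a group. With windows of 10 and 50 kb, 7 and 9 of the 10 genes had a peak, the gene lost being CXCL8 and the gene gained CXCL5. By summits, and with a fold over 5, a fold over 10 or a −log10 q over 10 required, 8 had one, and the same numbers held for peaks with a fold over 10 wherever they were counted. Measured around the 5′ end, which leaves out CCL2 and LIF, 6 of 8 had one. The number of distinct peaks, 25, became 45 with 50 kb, 14 around the 5′ end and 15 with a fold over 10, and lay between 18 and 24 under the other settings. The median fold, 12.1, lay between 12.3 and 13.7 under the settings tried.

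The share of protein-coding genes with a peak, 86.1%, was 81.6% with 10 kb, 92.0% with 50 kb, 81.2% around the 5′ end, 79.5% with a −log10 q over 10, 83.2% with a fold over 5, 72.3% with a fold over 10, 65.5% over RefSeq genes of every type and, chosen after seeing the data, 74.2% over protein-coding genes with a span of up to 10 kb. The cause of these shifts is the construction of each setting, which admits other windows, peaks or genes.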

Other observations

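Between 20 and 50 kb from the 10 genes lay 20 further peaks that were not within 20 kb of any of them. Of these 20, 11 had a fold over 10, against 48.5% of all peaks. The 20 peaks were unevenly spread, and 8 of them stood near LIF. On its low-coordinate side, 6 peaks between 20.1 and 43.3 kb from LIF had folds of 22.98 to 57.9, the highest at chr22:30208196-30209443 with 135 fragments (exact Poisson 95% confidence interval 113 to 160), 1599 bp from an end of HORMAD2. All 6 exceeded the median fold of all peaks, and this highest one also exceeded the strongest peak within 20 kb of LIF, 34.6, as did 1 other, at 36.5. The remaining 2, on the side of CASTOR1 and TBC1D10A, had folds of 14.1 and 6.13.

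Upstream of CXCL8, beyond the strong peak at 12.6 kb, 3 more peaks lay 27.9 to 32.2 kb away within the lncRNA gene INKILN. The strongest, at chr4:73709478-73710143, had a fold of 41.0 and 137 fragments (115 to 162), with its summit 513 bp from an end of the lncRNA gene UMLILO. The others had folds of 14.9 and 4.30. The peak 35.7 kb upstream of CCL20, with a fold of 95.5, exceeded all 25 peaks within 20 kb of the 10 genes, and its summit was 789 bp from an end of the pseudogene SNRPGP8. Whether any of these peaks acts on the chemokine genes was not tested. These genes and peaks were named after their values were seen.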
